A study of Mus musculus with 8 samples.

Results

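The Snrpn imprinted domain of mouse chromosome 7 was examined through 7 genes, Snrpn, Snurf, Ndn, Magel2, Mkrn3, Peg12 and Ube3a. They were taken by gene symbol from the 54281 genes of the expression tables, where each symbol had 1 row, and all 7 were among the 17272 genes that passed the filter on low counts. The data are bulk RNA-seq of epiblast-like cells (EpiLCs), formative pluripotent cells made from embryonic stem cells (ESCs) and harvested on day 2 of conversion. The 8 libraries came from 4 Tet1 KO lines (KO15, KO25, KO1 and KO9) and 4 WT lines (WT12, WT34, WT7 and WT17), each sequenced once. KO lines carried the Tet1tm1Koh allele, and KO and WT lines alike were male blastocyst-derived ESC lines of a (B6 × 129S6)F1 background. The study describes its KO and WT lines as littermate pairs, but which lines are littermates is not given in the sources used here, so no pairs were formed. All lines were converted with bFGF, without Activin A, after adaptation to feeder-free culture in an inhibitor medium with LIF, having been kept on feeder fibroblasts before that. Each line stands for 1 library, and p-values measure the spread between lines.

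The column names of the tables end in b2 (KO15, KO25, WT12 and WT34) or b1 (KO1, KO9, WT7 and WT17), a suffix that the study's text does not explain. Each suffix holds 2 KO and 2 WT lines, so values are also given within b2 and within b1. Estimated counts summed to between 13916576 and 23680839 per library, and 1 count was worth between 0.0417 and 0.0729 CPM (counts scaled to a common library size, here with TMM factors). Tet1 itself followed the labels, with 53.5, 54.2, 45.3 and 38.4 CPM in KO15, KO25, KO1 and KO9, against 559, 851, 816 and 775 CPM in WT12, WT34, WT7 and WT17. In TPM, which are scaled for transcript length, the gap was narrower. The means were 26.8 TPM in KO lines (at most 32.0) and 81.2 TPM in WT lines (at least 60.5).

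Genes of this domain are imprinted, which means that the copy inherited from one parent is silenced. The control region lies at the Snrpn promoter and is methylated on the maternal copy. Snrpn, Snurf, Ndn, Magel2, Mkrn3 and Peg12 are transcribed from the paternal copy, whereas Ube3a is transcribed from the maternal copy in neurons and from both copies in most other cells. Loss of the paternally expressed genes is tied to Prader-Willi syndrome in people, and loss of maternal UBE3A to Angelman syndrome. TET1 oxidizes methylated cytosine, the base that marks the silenced copy at the control region. The tables hold 1 value per gene and library, and expression of the maternal and paternal copies was not separated here.

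On GRCm38 chromosome 7 the members form 2 groups, placed here by the GENCODE M21 annotation. Ube3a lies at 59228750 to 59311536 on the plus strand, and Snurf (59995449 to 60005049) and Snrpn (59982495 to 60140219) lie on the minus strand. Ndn (62346569 to 62350262, plus), Magel2 (62377010 to 62381640, plus), Mkrn3 (62417593 to 62420139, minus) and Peg12 (62461871 to 62464510, minus) lie together farther along, each annotated with a single transcript. Between Ube3a and Snurf, Snhg14 (59307924 to 59975759, minus) spans the long noncoding transcript that hosts small nucleolar RNAs, and it runs into the 3′ end of Ube3a on the opposite strand. The library kit keeps the strand, but the setting used for counting is not given in the sources used here.

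RefSeq promoter sequences (GRCm38.p6, 250 bases before to 50 after the transcript start) were found for 7 of 7 members. Snrpn and Snurf are listed with the same promoter, chr7:60005150-60005449 on the minus strand, which is shown because both genes followed the same pattern over the lines. Those of Ndn (chr7:62348027-62348326, plus strand) and Magel2 (chr7:62376729-62377028, plus strand) are shown because these genes are close neighbours on the same strand whose levels differed in pattern. Each sequence reads 5′ to 3′ on the gene's strand, and capitals mark 2 motifs, CGCATGCG (a binding site of NRF1 type, which reads alike on both strands) and TGCCGC or its reverse complement (ZFP57 type).
Snrpn and Snurf: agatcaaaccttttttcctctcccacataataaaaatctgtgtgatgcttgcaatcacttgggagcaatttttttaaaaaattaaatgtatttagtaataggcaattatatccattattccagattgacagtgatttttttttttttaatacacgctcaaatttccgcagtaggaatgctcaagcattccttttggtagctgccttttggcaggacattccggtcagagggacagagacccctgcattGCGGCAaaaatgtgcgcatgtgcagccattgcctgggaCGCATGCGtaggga
Ndn: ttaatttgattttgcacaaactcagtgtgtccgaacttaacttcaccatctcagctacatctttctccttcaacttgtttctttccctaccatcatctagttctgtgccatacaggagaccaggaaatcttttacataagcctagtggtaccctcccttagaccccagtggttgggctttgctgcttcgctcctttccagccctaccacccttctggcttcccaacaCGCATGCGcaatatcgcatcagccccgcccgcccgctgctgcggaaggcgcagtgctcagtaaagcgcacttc
Magel2: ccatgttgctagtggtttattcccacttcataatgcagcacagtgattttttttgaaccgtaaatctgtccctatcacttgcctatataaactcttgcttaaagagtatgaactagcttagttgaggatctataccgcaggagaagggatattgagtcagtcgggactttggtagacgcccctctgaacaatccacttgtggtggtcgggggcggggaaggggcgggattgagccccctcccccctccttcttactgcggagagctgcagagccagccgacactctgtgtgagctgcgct

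The motif CGCATGCG was present in 1.86% of the 32817 RefSeq promoters of this length. It was found in the promoter shared by Snrpn and Snurf, in the 3 upstream promoters listed for Snrpn and in that of Ndn, and it was not found in the windows of Magel2, Mkrn3, Peg12 and Ube3a. The 3 upstream windows share long stretches of sequence with one another, so their matches are not separate occurrences. TGCCGC was present in 11.6% of promoters, and among the members it matched once, in the window of Snrpn and Snurf. The motifs were chosen after the sequences had been seen, and a match does not show binding. The windows held 7 CpG for Snrpn and Snurf, 11 for Ndn, 10 for Magel2, 15 for Mkrn3, 12 for Peg12 and 29 for Ube3a, beside a median of 7 over all promoters.

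On the TPM scale, which allows for transcript length, EpiLCs had far more RNA of Snrpn and Ube3a than of Ndn, Mkrn3, Magel2 and Peg12. Snrpn, a core protein of the spliceosome prominent in brain, had between 50.0 and 95.3 TPM over the 8 lines. Ube3a, a ubiquitin ligase, had between 32.4 and 44.3 TPM and was below Snrpn in 8 of 8 lines, by a median ratio of 1.66. Ndn, whose protein necdin restrains cell division in neurons, had between 0.418 and 1.29 TPM, lower than Ube3a by at least 29.4-fold in each line. Mkrn3, a ring-finger protein that in people holds back the onset of puberty, had between 0.399 and 0.928 TPM. Magel2, which acts with TRIM27 and USP7 in the sorting of endosomal proteins, had between 0.0417 and 0.543 TPM. Peg12, a binding partner of the kinase GSK3, had between 0.112 and 0.306 TPM.

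Not every step in this order was larger than the spread over lines. Ndn was above Mkrn3 in 7 of 8 lines, with ratios between 0.753 and 1.58, so these neighbours in the order were not separated. Mkrn3 was above Magel2 in 8 of 8 lines, though their ranges over lines overlapped. Magel2 was above Peg12 in 3 of 8 lines, and those 2 had no fixed order. Snrpb encodes the protein that SmN, the product of Snrpn, resembles most, and Snrpn was above it in 1 of 8 lines with a median TPM ratio of 0.714.

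The value of Snurf, the short reading frame at the start of the Snrpn transcript, could not be placed in this order. Its annotation is a single transcript of 216 bases, and its TPM ran from 1186 to 2451, while its estimated counts were 15.0% to 17.02% of the sum of Snurf and Snrpn in every line. All 186 of its 31-base words also occur in Snrpn and in Gm38393, a gene model at 59974149 to 60005064 that spans the same locus. Of the 2125 such words of Snrpn, 503 occur in Gm38393. How reads were divided among these 3 rows is therefore uncertain, and the sum of Snrpn and Snurf, or of all 3, is given beside them.

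**Figure D1:**
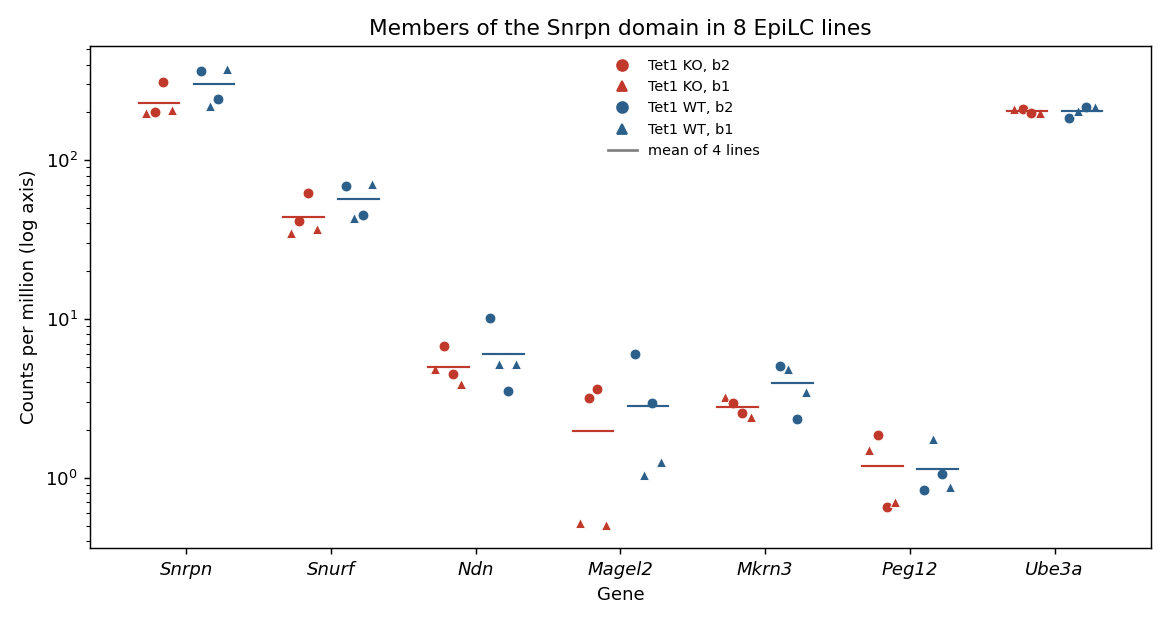
Level of each gene in each line in CPM on a log axis, KO lines in red on the left and WT lines in blue on the right of each gene, with circles for b2, triangles for b1 and a bar at the mean of 4 lines. Snrpn and Ube3a lie highest, and the circles of Magel2, from 2.97 to 6.01 CPM, lie above all its triangles, from 0.501 to 1.26 CPM.

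KO and WT lines were then compared for each member. No member passed the test: 0 of 7 had an adjusted p under 0.05 (quasi-likelihood test of edgeR, p adjusted over the 17272 genes by Benjamini-Hochberg), and 0 of 7 had an unadjusted p under 0.05, beside 5.62% of all genes. Of all genes tested 7 passed, or 0.0405%. DESeq2 called 96 genes and limma 2, and neither called a member. The log2 fold change was negative for 6 of 7 members with a median of −0.38, beside 51% negative and a median of 0.00 over all genes. With Snrpn and Snurf summed, which share sequence, it was negative for 5 of 6 with a median of −0.33. Without WT12 it was negative for 5 of 7 members, and the median was −0.06. With each line left out in turn, that median ran from −0.48 (without WT34) to −0.06. Without KO25, 2 of 7 members had an unadjusted p under 0.05 (edgeR), beside 4.78% of all genes. Without WT17 it was 1 of 7 beside 4.93%, and without WT34 1 of 7 beside 5.71%. No member passed after adjustment in these fits. No member had every KO line below every WT line, which held for 1.8% of genes tested.

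Snrpn had 202, 312, 198 and 206 CPM in KO15, KO25, KO1 and KO9, against 364, 243, 376 and 220 CPM in WT12, WT34, WT7 and WT17. KO25 overlapped the WT lines, while the other 3 KO lines lay below all of them. The means were 230 ± 55.3 CPM in KO lines and 301 ± 81.0 CPM in WT lines (SD, n = 4 each). The log2 fold change was −0.39 with a standard error of 0.21 (95% interval −0.87 to 0.09, edgeR adjusted p = 0.967).

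Snurf had 41.4, 62.5, 35.0 and 36.8 CPM in KO15, KO25, KO1 and KO9, against 69.0, 45.5, 70.4 and 43.5 CPM in WT12, WT34, WT7 and WT17. Again only KO25 reached into the WT range. Summed with Snrpn it gave 244, 375, 233 and 243 CPM in KO15, KO25, KO1 and KO9, against 433, 288, 447 and 263 CPM in WT12, WT34, WT7 and WT17. With Gm38393 added as well the sums were 344, 536, 314 and 333 CPM in KO15, KO25, KO1 and KO9, against 636, 419, 602 and 370 CPM in WT12, WT34, WT7 and WT17. The division among the 3 rows thus left the pattern over lines in place, and the log2 fold change of the 3 summed was −0.41 with a standard error of 0.22 (edgeR adjusted p = 0.962).

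Ndn had 6.75, 4.52, 4.87 and 3.91 CPM in KO15, KO25, KO1 and KO9, against 10.2, 3.54, 5.17 and 5.23 CPM in WT12, WT34, WT7 and WT17. WT lines held both the highest and the lowest value, and the counts behind them ran from 50 to 244. Its log2 fold change of −0.27 had a standard error of 0.32 (edgeR adjusted p = 0.998).

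Mkrn3 had 2.96, 2.55, 3.23 and 2.41 CPM in KO15, KO25, KO1 and KO9, against 5.05, 2.34, 3.46 and 4.85 CPM in WT12, WT34, WT7 and WT17. The 4 KO lines lay close together (2.79 ± 0.378 CPM), and WT lines spread wider (3.92 ± 1.27 CPM, SD, n = 4 each). The log2 fold change was −0.50 with a standard error of 0.27 (95% interval −1.11 to 0.11, edgeR adjusted p = 0.967).

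Peg12 had 1.87, 0.656, 1.50 and 0.702 CPM in KO15, KO25, KO1 and KO9, against 0.834, 1.06, 0.880 and 1.74 CPM in WT12, WT34, WT7 and WT17. Both groups held lines on either side, and the counts were between 9 and 37. The log2 fold change was 0.08 with a 95% interval of −0.88 to 1.03, and smaller changes than its ends could not be told from 0.

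Ube3a had 210, 197, 209 and 198 CPM in KO15, KO25, KO1 and KO9, against 184, 217, 215 and 205 CPM in WT12, WT34, WT7 and WT17. It was the most even member, with 204 ± 6.74 CPM in KO lines and 205 ± 15.1 CPM in WT lines (SD, n = 4 each). Its log2 fold change was −0.01, with a 95% interval of −0.18 to 0.16.

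Magel2 had 3.17, 3.65, 0.516 and 0.501 CPM in KO15, KO25, KO1 and KO9, against 6.01, 2.97, 1.26 and 1.04 CPM in WT12, WT34, WT7 and WT17. It was the widest of the members, with an estimated count of 10 in KO9 and of 144 in WT12. The log2 fold change of −0.56 had a standard error of 0.76 (95% interval −2.27 to 1.16, edgeR adjusted p = 0.998). In an exact two-sided permutation test of log2(TPM + 1), whose smallest p over the 70 assignments is 0.0286, p between KO and WT ran from 0.171 to 0.971 over the members.

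With the suffix as a block, 28 genes passed, or 0.162% of those tested, and again none was a member (edgeR, 1 of 7 with an unadjusted p under 0.05, beside 11.9% of all genes). That one was Magel2, whose log2 fold change was −0.71 with a standard error of 0.30 and a 95% interval of −1.37 to −0.05, but whose adjusted p was 0.386. Snrpn stood at −0.40 (adjusted p = 0.474) and Mkrn3 at −0.50 (adjusted p = 0.505) in the same edgeR fit.

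Within b2, the log2 fold changes were −0.23 for Snrpn, −0.14 for Snurf, −0.29 for Ndn, −0.41 for Magel2, −0.43 for Mkrn3, 0.46 for Peg12 and 0.03 for Ube3a. Within b1 they were −0.56 for Snrpn, −0.67 for Snurf, −0.24 for Ndn, −1.17 for Magel2, −0.56 for Mkrn3, −0.26 for Peg12 and −0.05 for Ube3a. In b1 the 2 KO lines were both below the 2 WT lines for 5 of 7 members (Snrpn, Snurf, Ndn, Magel2 and Mkrn3), an order that 21.6% of genes tested showed there. In b2 the same order was seen for 0 of 7 members and for 15.3% of genes tested. No member passed within either suffix after adjustment, although the unadjusted 95% intervals of Snrpn (−1.06 to −0.06), Snurf (−1.14 to −0.19) and Magel2 (−2.33 to −0.0012) in b1 lay below 0. Within b1 11% of all genes had an unadjusted p under 0.05, and 0.109% passed after adjustment there, against 0.0289% within b2. Snrpn and Snurf share sequence and count here as 1 signal.

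The difference in fold change between b2 and b1 was itself tested. For Snrpn it was 0.32 with a standard error of 0.41, for Snurf 0.52 with 0.40, and for Magel2 0.75 with 0.59 on the log2 scale (edgeR interaction, adjusted p = 1.00 for each). Of all genes 0 passed, or 0%, while 227 had an unadjusted p under 0.05 and DESeq2 called 2, neither a member. A stronger KO effect in b1 than in b2 was therefore not shown.

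**Figure D2:**
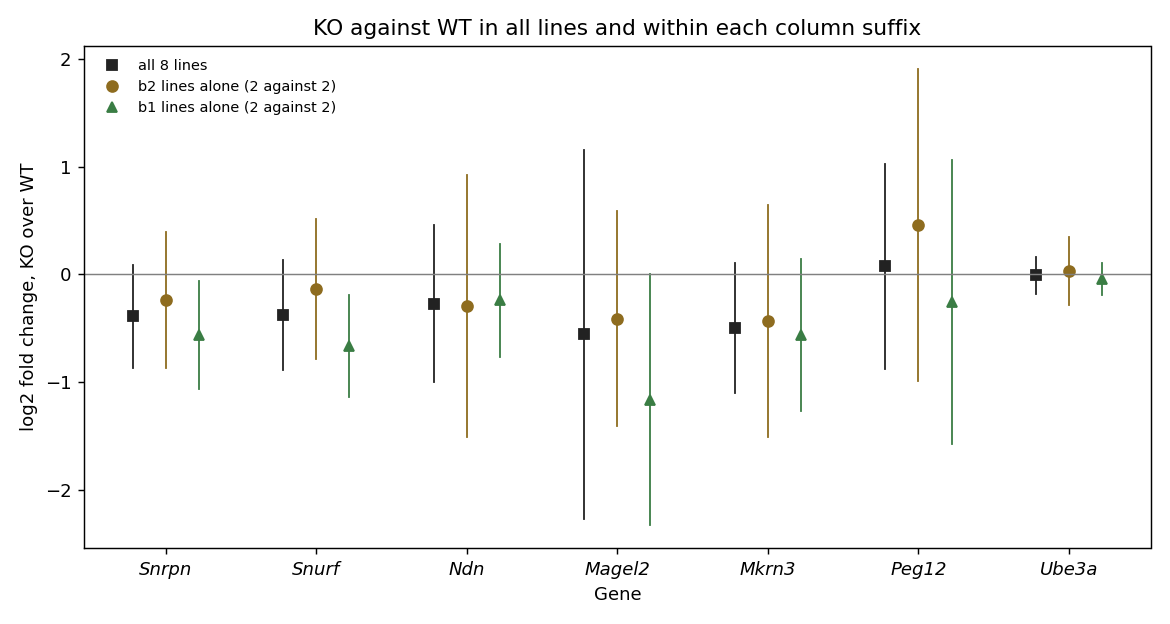
Log2 fold change of KO over WT for each gene with its 95% interval from edgeR, in all 8 lines (squares), within b2 (circles) and within b1 (triangles). Of the 21 intervals those of Snrpn, Snurf and Magel2 within b1 lie below 0 before adjustment for multiple testing, and that of Ube3a over all lines, from −0.18 to 0.16, is the narrowest of the 7 over all lines.

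Magel2 separated the libraries by suffix and not by genotype. It had 3.17, 3.65, 6.01 and 2.97 CPM in KO15, KO25, WT12 and WT34 of b2, against 0.516, 0.501, 1.26 and 1.04 CPM in KO1, KO9, WT7 and WT17 of b1. Every b2 line lay above every b1 line, with means of 3.95 ± 1.40 CPM in b2 and 0.83 ± 0.382 CPM in b1 (SD, n = 4 each), a ratio of 4.76. With genotype in the model, the log2 fold change was 2.31 with a standard error of 0.30 (95% interval 1.64 to 2.99, edgeR adjusted p = 9.3e-04). It was the 1 of 7 members that passed this test, beside 24.6% of genes tested in either direction and 13.7% called higher in b2. Magel2 was also the only member with every b2 line above every b1 line, an order that 13.9% of genes showed. On log2(TPM + 1) the difference was 0.32 (exact permutation p = 0.0286, the smallest this design allows). What the suffix marks is not given in the sources used here, and whatever it marks cannot be told apart from the lines that carry it.

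The other paternally expressed members did not separate in this way. The b2 over b1 log2 fold change was 0.40 for Ndn, the gene next to Magel2, and −0.09 for Mkrn3, −0.13 for Peg12, 0.19 for Snrpn and 0.27 for Snurf, with edgeR adjusted p between 0.357 and 0.859. That of Ndn was 0.01 without WT12, and that of Snrpn 0.02 without KO25. Ndn, for example, had 6.75, 4.52, 10.2 and 3.54 CPM in KO15, KO25, WT12 and WT34 of b2, against 4.87, 3.91, 5.17 and 5.23 CPM in KO1, KO9, WT7 and WT17 of b1. The ranges of b2 and b1 overlapped.

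Ube3a depended on the scale. Its CPM overlapped between b2 and b1 (log2 fold change −0.03, edgeR adjusted p = 0.767), but its TPM were 40.5, 40.1, 37.9 and 44.3 in KO15, KO25, WT12 and WT34 of b2, against 36.1, 32.4, 35.0 and 34 in KO1, KO9, WT7 and WT17 of b1. The TPM did not overlap (difference 0.24 on log2(TPM + 1), exact permutation p = 0.0286, and adjusted p = 0.132 by limma). The estimated counts per TPM of Ube3a, set against those of Snrpn in the same library, ran from 1.19 to 1.30 in b2 and from 1.46 to 1.61 in b1. Its model holds 18 transcripts of 436 to 9856 bases, whose separate levels were not analysed here.

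Of 6 marker lists of cell states, 2 had summed TPM that did not overlap between b2 and b1. The sum over 8 formative and primed epiblast genes, led by Pou5f1, was 1130 to 1209 in b2 and 921 to 1049 in b1. Of these genes, Pou3f1 (b2 over b1 log2 fold change 0.89), Sox3 (0.72), Fgf5 (0.64) and Dnmt3a (0.56) were called higher in b2. Pou5f1 (0.05), Dnmt3b (0.08), Otx2 (0.15) and Pou2f2 (0.42) were not called. The sum over 10 feeder fibroblast genes was 5.75 to 17.8 in b2 and 20.6 to 30.9 in b1. It was made up mostly of Thy1, and the genes of that list did not move together. Thy1 (b2 over b1 log2 fold change −0.95) and Acta2 (−1.51) were lower in b2 and Fbn1 (1.12) was higher, while Col1a2 stood at 1.17, Dcn at 0.48 and Col1a1 at −0.04 without passing, and Postn was at 0 in every line. The sums overlapped for neurons and neural progenitors (31.4 to 37.5 in b2, 33.4 to 44.6 in b1), naive genes (21.2 to 49.6 in b2, 29.9 to 37.6 in b1), extraembryonic endoderm (3.24 to 4.92 in b2, 2.12 to 3.52 in b1, with Ttr at 0) and primitive streak and mesoderm (0.655 to 1.76 in b2, 0.345 to 1.48 in b1). In each of these lists 1 gene was nonetheless called higher in b2 and 0 lower (edgeR). In the same order they were Sox1 (1.94), Klf2 (1.15), Foxa2 (1.83) and Eomes (1.44). Between KO and WT lines the primitive streak and mesoderm sum did not overlap (1.02 to 1.76 TPM in KO lines, 0.345 to 0.822 TPM in WT lines). These levels were near the floor. Of the 8 genes 0 had a mean of at least 1 TPM, and Eomes had the highest, 0.375 TPM. The 4 genes tested had KO over WT log2 fold changes of 1.39 (T), 1.19 (Hand1), 1.12 (Eomes) and −0.09 (Pdgfra). Of the 9 neural genes tested, Tubb3 stood at −0.49 and Elavl3 at −0.85, and 5 in all were negative. Rbfox3 (0.36), Pax6 (0.23), Sox1 (0.11) and Dcx (0.08) were above 0, and the median of the list was −0.004. Between KO and WT 0 genes of these 6 lists passed (edgeR), and an unadjusted p under 0.05 was seen for Tubb3, Elavl3, T and the endoderm gene Sox7 (2.03). The part of these differences in the levels of the members was not tested, and in bulk samples fewer cells of a type and less RNA per cell cannot be told apart.

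Along the chromosome, 16 neighbours of the domain were listed, of which 15 lie in the region and 14 were tested. Between KO and WT 0 of 14 passed (edgeR, 0 with an unadjusted p under 0.05), with a median log2 fold change of −0.03. Between b2 and b1, 4 were higher and 1 lower in b2, or 5 of 14 beside 24.6% of all genes tested in either direction. Klf13, a zinc-finger transcription factor gene beyond Peg12, had the highest log2 fold change of these (1.30, edgeR adjusted p = 7.5e-05), followed by Mphosph10 (0.48, adjusted p = 0.00109) and Nipa2 (0.45, adjusted p = 0.00461), with Tubgcp5 at 0.35. Cyfip1 was the one lower in b2 (−0.24). Mkrn3 and Peg12, which lie between Magel2 and Klf13, were not called in either direction.

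**Figure D3:**
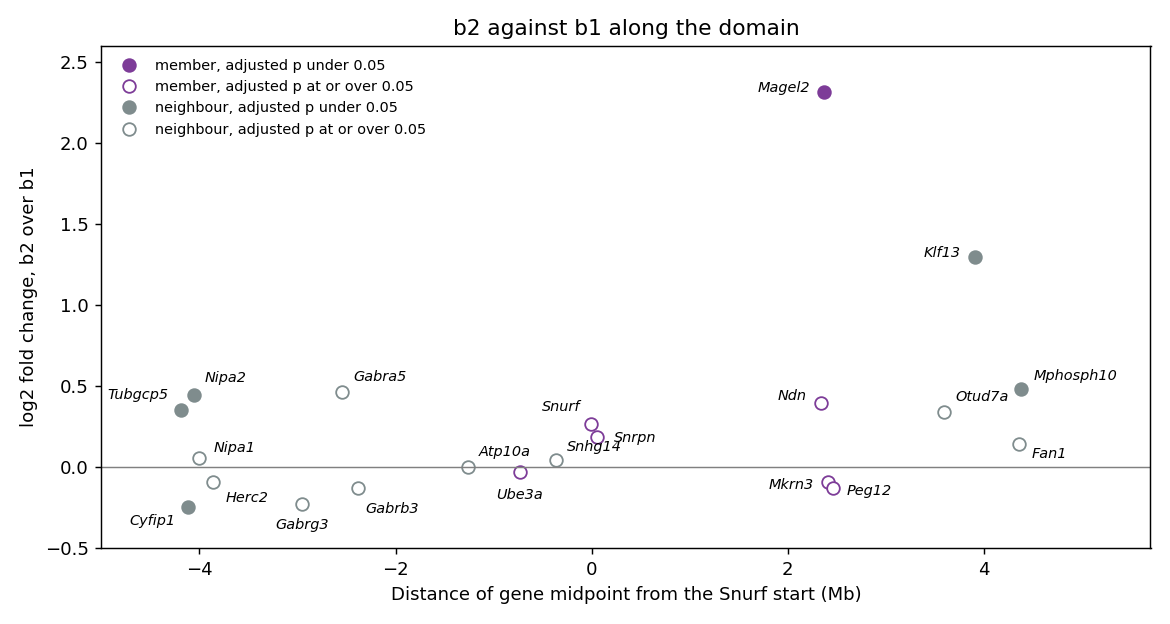
Log2 fold change of b2 over b1 against the distance in Mb of each gene's midpoint from the start of Snurf, for members (purple) and neighbours (grey), filled where the adjusted p was under 0.05. Magel2 at 2.31 and Klf13 at 1.30 stand highest, with Mkrn3 at −0.09 and Peg12 at −0.13 between them.

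The line WT12 stood high in several members. It was the highest of the 8 lines in Ndn, Magel2 and Mkrn3 and the second highest in Snrpn and Snurf, and it also had the largest count total. Its level was 2.19 times the mean of the other WT lines for Ndn, 3.42 times for Magel2 and 1.42 times for Mkrn3. Without WT12 the KO over WT log2 fold changes of Ndn and Magel2 turned to 0.10 and 0.15, and that of Mkrn3 remained negative. Ube3a went the other way, with the lowest of its 8 levels in WT12.

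The highest lines of Snrpn and Snurf came from both genotypes and both suffixes. WT7, WT12 and KO25 had between 312 and 376 CPM of Snrpn, and the other 5 lines had between 198 and 243 CPM. Gm38393 had 100, 162, 81.3 and 90.3 CPM in KO15, KO25, KO1 and KO9, against 203, 131, 155 and 107 CPM in WT12, WT34, WT7 and WT17, with the same 3 lines at the top. Snhg14, transcribed in the same direction from farther along the locus, had 292, 361, 316 and 330 CPM in KO15, KO25, KO1 and KO9, against 430, 307, 401 and 300 CPM in WT12, WT34, WT7 and WT17. In CPM those 3 lines again held its highest values, while its overall spread was narrower. In TPM the order differed, with 1574, 1574 and 1443 in KO1, KO9 and KO15. These lay above WT12 (1425), WT7 (1352) and KO25 (1329). Its mean was 1480 TPM in KO and 1287 TPM in WT lines, against 325 and 359 CPM, so its pattern over lines depended on the scale.

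**Figure D4:**
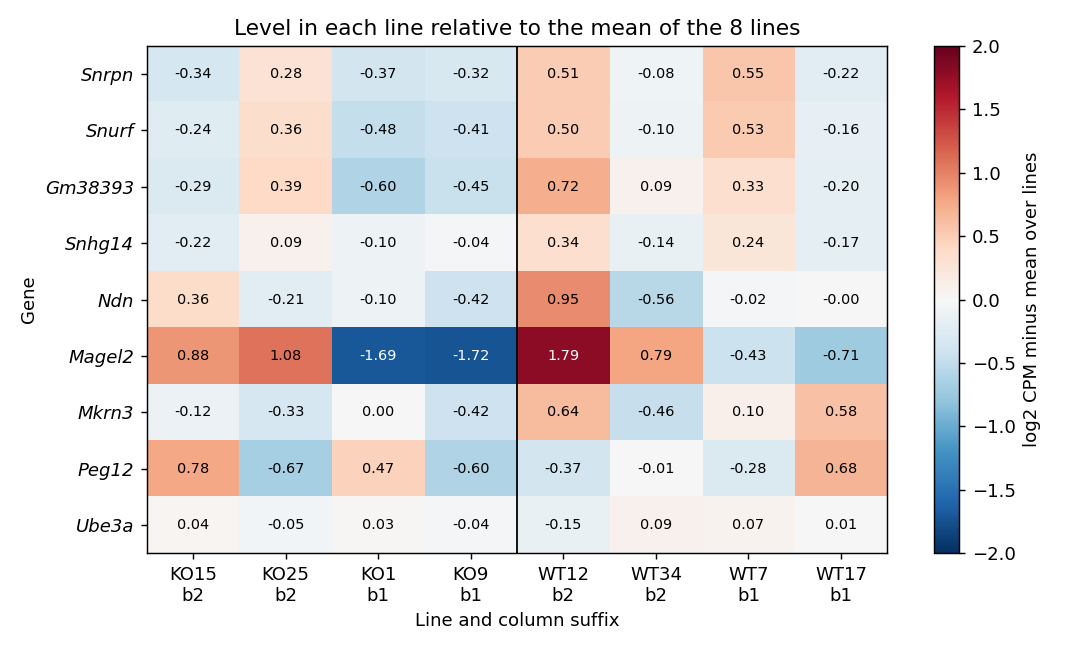
Log2 CPM of each gene in each line minus its mean over the 8 lines, KO lines left and WT lines right of the black line, with b2 before b1 in each group; red is above and blue below the mean. KO25, WT12 and WT7 are above the mean in Snrpn, Snurf, Gm38393 and Snhg14, and in Magel2 the 4 b2 lines are above (0.79 to 1.79) and the 4 b1 lines below (−1.72 to −0.43).

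Covariation across the 8 lines was taken from log2 CPM, with Snrpn and Snurf summed, which gave 15 pairs of members. Ndn and Mkrn3 had the highest correlation, with Pearson's r = 0.75 (exact permutation p = 0.0281, adjusted 0.422 over the pairs) and Spearman's rho = 0.86 (exact permutation p = 0.0107, adjusted 0.161). Without WT12 and WT34, the lines farthest from the median of Ndn, r was 0.39, so the relation rested in large part on those lines, while values centred within the suffix gave 0.85. No pair passed after adjustment. The summed Snrpn and Snurf had r = 0.40 with Ndn and −0.34 with Ube3a. Without WT12 and WT7, the lines farthest from the median of the sum, these were −0.28 and −0.33. On log2(TPM + 1) Snrpn alone had r = 0.46 with Ndn and 0.05 with Ube3a, so neither relation was stable. No pooled r is given for Magel2, whose levels fell apart by suffix.

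Likeness in log2 CPM was taken over 12570 genes with a mean of at least 1 CPM. Predicted genes such as Gm38393, pseudogenes and genes without a symbol were left out. Those most like Snrpn across the 8 libraries were Snurf (r = 0.98), Shoc1 and Myh3 (both 0.95), Col26a1 (0.95) and Klhl13 (0.93). All 31-base words of Snurf occur in Snrpn, so the r of Snurf is not that of a separate signal. Snhg14 took the 9th place with r = 0.91. Most like Ndn were Rxylt1 (0.97), Pm20d1 (0.96), and Abhd5, Tsg101 and Ugcg (each 0.95), and Mkrn3 took the 268th place. With 8 libraries and this many genes such values are descriptions of likeness only.

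Genes that work with the members were read from lists fixed for this work. Of 12 paralogs 0 passed between KO and WT (edgeR, 1 with an unadjusted p under 0.05). That was Maged2, a relative of Ndn and Magel2 (log2 fold change −0.39, adjusted p = 0.880). Of the 7 Sm core proteins of the spliceosome, the family to which the product of Snrpn belongs, 0 passed, and Snrpb stood at 0.12 with a standard error of 0.08. Among 12 partners of the members' proteins, such as Trim27 (0.07) and Usp7 (0.00) for Magel2 and Gsk3b (−0.13) for Peg12, 0 passed. Of 9 genes that read or keep imprints 0 passed as well, with Zfp57 at 0.05, Trim28 at 0.09 and Zfp445 at −0.06. The medians of these 4 lists were 0.03, 0.06, −0.05 and 0.02, beside 0.00 over all genes.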

How the data were processed

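RNA was sequenced from EpiLCs of 4 Tet1 KO and 4 WT lines (stranded mRNA libraries, single-end reads). Reads had been trimmed by the authors (Trim Galore 0.6.4), assigned to a GENCODE mouse transcriptome (Salmon 0.14.1) and summed per gene in R 4.0.2, per the methods and the submitters' processing notes, which name the build mm10. The authors deposited estimated counts and, in another table, TPM of the same quantification. Salmon shares reads among transcripts by a model, so genes with common sequence have uncertain values. The titles of WT12 and WT17 name another line than their cell line labels do, and titles were followed.

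Estimated counts were rounded (27.8% of values changed, by at most 0.5). After filterByExpr, 17272 genes entered the quasi-likelihood test of edgeR 4.0.16 (R 4.3.3) with TMM scaling; p-values were adjusted over all of them by Benjamini-Hochberg, and genes under 0.05 were called. CPM use TMM-scaled library sizes. Totals were 13916576 to 23680839 per library. At their low levels, Magel2 and Peg12 rest on few counts. Exact permutation tests used log2(TPM + 1). Alternatives were DESeq2 1.42.0, limma 3.58.1, other scalings and filters, each line left out, the suffix as a block and each suffix alone. Fits with summed rows, limma for b2 against b1 and DESeq2 for the interaction were added after seeing the data. The scripts were tested on simulated counts. Positions came from GENCODE M21 (53544 gene IDs matched), since the release of the methods was not used here. The genes named were the 7 members, Tet1, genes of the fixed lists and the 5 genes most like Snrpn and Ndn, and Gm38393 was named after its values were seen. Members and lists were chosen with earlier results of these data known.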

Additional observations from a re-analysis of the deposited data

Results flagged for a closer look

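Of 16 groups of 4 lines examined, 2 held a line far from the others, in which the gap to the nearest line, as a share of the group's range, exceeded Dixon's critical value. Both concern KO25 among the KO lines and are 1 signal. Snrpn had 312 CPM in KO25, with a gap of 0.934 of the range to the other KO lines, and the sum of Snrpn and Snurf had 375 CPM there, with a gap of 0.927 of the range. Chance alone gives such a gap in about 1 in 20 groups.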

How the results depend on the processing

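Members called between KO and WT stayed at 0 in each of the 23 alternative settings run, although limma with a filter tested only 3 members and the minimum of 10 counts in every library left 6. The number of all genes called, 7 in edgeR, was 96 with DESeq2, 28 with the suffix as a block (also with Snrpn and Snurf, or these and Gm38393, summed), 19 in b1 alone, 2 with limma on log2(TPM + 1) with or without a filter and 3 with limma on log2(TPM + 0.1). With each line left out in turn it was between 6 and 10.

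Leaving out WT12 alone turned the log2 fold change of KO over WT of Magel2, the largest in size of the 7 members, to 0.15, against −0.56 with all lines, and that of Ndn to 0.10, against −0.27. Values near 0 turned in further settings. That of Peg12 was −0.06 without KO1, −0.23 without KO15, −0.03 without WT7, −0.06 without WT12 and −0.26 in b1 alone. Ube3a moved to 0.0044 with no filter, 0.0052 without KO25, 0.0134 without WT7, 0.0179 without WT34 and 0.031 in b2 alone. Between b2 and b1, Mkrn3 was 0.0098 without WT17 and 0.10 without WT34. Peg12 was 0.018 without KO1, 0.05 without KO25, 0.0068 without WT12 and 0.15 without WT17. Ube3a was 0.0073 without WT12 and 0.24 by limma on log2(TPM + 1). The cause was not tested. With each line left out in turn, KO over WT ran from −0.45 to 0.10 for Ndn, −1.03 to 0.15 for Magel2, −0.23 to 0.37 for Peg12 and −0.0625 to 0.0179 for Ube3a. With no change of direction, it ran from −0.57 (without KO25) to −0.26 (without WT7) for Snrpn and from −0.60 to −0.26 for Snurf, without the same lines. For Mkrn3 it ran from −0.67 (without WT34) to −0.36 (without WT12). In the same way b2 over b1 ran from −0.35 to 0.10 for Mkrn3, −0.58 to 0.15 for Peg12 and −0.073 to 0.0073 for Ube3a, and, with no change of direction, from 0.01 (without WT12) to 0.63 (without WT34) for Ndn and from 0.02 (without KO25) to 0.39 (without WT7) for Snrpn.

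The call of Magel2 between b2 and b1 was kept in 13 settings, with log2 fold changes of 2.13 to 2.57. By limma on log2(TPM + 1) with no filter the number of members called fell to 0, with Magel2 at 0.32 (adjusted p = 0.0634), a scale on which levels under 1 TPM are compressed. Scaled by library size alone, 1933 genes were higher and 2511 lower in b2, against 2359 and 1894 with TMM, and Magel2 stood at 2.26. No paired analysis was possible because the labels share no numbers between KO and WT lines and do not say which lines of the littermate pairs belong together. Counts as low as 9 limit Peg12 and Magel2.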
